A study of Mus musculus with 18 samples.

Results

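Expression of 10 genes of glucose uptake, glycolysis and the response to low oxygen was followed in mouse colon tissue and colon tumor organoids. These were labelled as wild type or knockout for the ubiquitin ligase RNF138. The genes were taken by their symbols from a fixed list (Slc2a1, Hk2, Pfkp, Aldoa, Pgk1, Pkm, Ldha, Vegfa, Car9 and Egln3), and all 10 were present among the 36757 genes of the count table. All animals were C57BL/6 mice, by the study's methods male and female, aged 6 to 8 weeks when the treatment began. The 6 groups held 3 libraries each, 18 in all. In the colitis model, RNF138fl/fl mice (wild type, carrying the floxed allele) and RNF138-/- mice drank 2% dextran sulfate sodium (DSS) for 7 days and water for 14 days in repeated cycles, and the colon was taken 4 weeks after the last cycle. In the colitis-associated cancer (CAC) model, mice of both genotypes were first injected with the carcinogen azoxymethane at 10 mg/kg and started the same DSS cycles 4 days later. The organoids of both genotypes were grown in matrigel, in medium with EGF, from tumor cells of CAC mice. Every group therefore carried the DSS exposure, and no untreated colon was analysed here. The sources used here name neither a Cre driver nor the deleted exons, nor do they say whether the 3 libraries of a group came from separate animals or cultures, so that the p-values measure only the spread between these libraries, which may be technical.

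Glycolysis splits glucose into pyruvate in the cytosol, and lactate dehydrogenase turns the pyruvate into lactate when it is not burned in mitochondria. Under low oxygen the prolyl hydroxylases of the EGLN family no longer mark the hypoxia-inducible factors HIF-1α and HIF-2α for breakdown, and these factors then bind short hypoxia response elements with the core ACGTG or GCGTG and switch on genes of glucose uptake, glycolysis, vessel growth and acid handling. The colon mucosa is a tissue in which this response is active under normal conditions, since oxygen falls steeply toward the lumen, and it is a known feature of inflamed and tumor-bearing colon.

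The 10 genes fall into 3 roles. Slc2a1 encodes the glucose transporter GLUT1. Hk2, Pfkp, Aldoa, Pgk1, Pkm and Ldha encode a hexokinase, the platelet-type phosphofructokinase, aldolase A, phosphoglycerate kinase, the M-type pyruvate kinase and lactate dehydrogenase A. Vegfa (a growth factor for blood vessels), Car9 (a membrane carbonic anhydrase that handles acid outside the cell) and Egln3 (one of the oxygen-sensing prolyl hydroxylases, itself a HIF target) are outputs of the hypoxia response.

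The DNA just before the start sites is shown here because the core of the hypoxia response element can be read in it directly. In RefSeq promoters of the build GRCm38.p6, the 250 bases before the start were searched on both strands for the cores ACGTG and GCGTG, where the palindrome CACGTG holds the former on each strand. The former core stood in at least 1 promoter of 9 of the 10 genes (90%), while 18.5% of 27025 genes had it. Counted by promoter, it stood in 10 of the 15 promoters of the 10 genes (66.7%) and in 16.6% of 32851 promoters. Vegfa counts only through a start within its gene, where 218 of the 250 bases are annotated exon, and its other promoter lacked this core. The Aldoa promoters that count overlap and hold the same site, so that it enters the count by promoter more than once. The latter core stood in 4 of the 15 (26.7%) and in 28.2% of all promoters. Pfkp lacked the former core, and its promoter held the latter at 3 positions. A match of 5 letters is a description and not a measured binding site.

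Among windows that overlap no annotated exon, those of Ldha, Hk2 and Pgk1 held the most copies, and that of Egln3 held a single one. Capitals mark the former core on either strand, and each sequence is printed on the strand of its gene. They lie at chr7:46845554-46845803 (+), chr6:82774455-82774704 (-), chrX:106186850-106187099 (+) and chr12:54203875-54204124 (-), in this order. The window of Ldha lies within the annotated gene, between annotated exons, and the others lie before the gene.
Ldha: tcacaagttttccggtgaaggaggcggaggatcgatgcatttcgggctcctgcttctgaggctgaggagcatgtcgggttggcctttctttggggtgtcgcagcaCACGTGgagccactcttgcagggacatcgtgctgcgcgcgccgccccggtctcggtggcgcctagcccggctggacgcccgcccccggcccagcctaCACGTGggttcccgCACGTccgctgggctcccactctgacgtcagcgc
Hk2: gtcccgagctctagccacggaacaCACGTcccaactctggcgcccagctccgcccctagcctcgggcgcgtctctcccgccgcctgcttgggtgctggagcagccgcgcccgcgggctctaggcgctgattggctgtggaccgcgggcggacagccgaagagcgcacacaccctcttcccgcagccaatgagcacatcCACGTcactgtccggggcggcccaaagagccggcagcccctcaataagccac
Pgk1: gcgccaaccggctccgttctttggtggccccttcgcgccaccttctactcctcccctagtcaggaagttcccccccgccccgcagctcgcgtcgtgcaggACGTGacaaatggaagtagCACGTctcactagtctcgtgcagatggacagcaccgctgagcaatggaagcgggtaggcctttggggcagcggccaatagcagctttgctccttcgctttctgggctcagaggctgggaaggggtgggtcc
Egln3: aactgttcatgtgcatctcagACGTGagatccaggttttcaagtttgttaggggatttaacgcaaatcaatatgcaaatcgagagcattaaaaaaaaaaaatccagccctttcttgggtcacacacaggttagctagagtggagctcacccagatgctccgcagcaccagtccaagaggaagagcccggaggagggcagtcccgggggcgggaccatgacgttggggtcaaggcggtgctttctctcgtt

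In the Ldha promoter the 3 stretches began 145, 48 and 34 bases before the start, 2 of them the palindrome. For Slc2a1 and Car9, whose windows run into annotated exons, only the 30 bases around the match are given, at chr4:119108696-119108725 (+) and chr4:43506995-43507024 (+).
Slc2a1: agtcccgccccggACGTGctccccaggccc
Car9: cctatttccgatgCACGTacagcccgtcca

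The genes themselves lie on chromosome 4 (Slc2a1, bases 119108711 to 119137983, and Car9, bases 43506966 to 43513729), chromosome 6 (Hk2, 82725025 to 82774454), chromosome 7 (Aldoa, 126795234 to 126800751, and Ldha, 46841475 to 46855627), chromosome 9 (Pkm, 59656368 to 59679375), chromosome 12 (Egln3, 54178981 to 54203860), chromosome 13 (Pfkp, 6579768 to 6648777), chromosome 17 (Vegfa, 46016993 to 46032369) and chromosome X (Pgk1, 106187100 to 106203699) of mm10. Counts are summed over exons. Pgk1 and Pkm are uncertain in level, because 53.9% and 25.8% of the windows of 50 bases along their transcripts also occur in another annotated gene, most often in Gm5537 and Gm6560. This share was 9.26% for Ldha, 6.43% for Aldoa, 5.1% for Pfkp and 4.76% for Car9, and at most 1.54% for the other 4 genes. Exons of Pfkp, Pkm and Car9 overlap those of Pitrm1, Gm49759 and Gm12454 by 748, 767 and 214 bases. Those of Slc2a1 and Aldoa overlap exons of Gm12868 and Fam57b by 105 and 25 bases. How reads in these overlaps were counted, and whether by strand, is not given in the sources used here.

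Libraries held between 11514716 and 24390082 counts, and the lowest count of any of the 10 genes in any library was 357 (Car9), so that counting error was small beside the spread between libraries. Levels are given as CPM, counts scaled to a common library size. Rnf138 itself did not fall in the libraries labelled RNF138-/-. Its mean was 19.6 and 18.8 CPM in RNF138fl/fl and RNF138-/- colitis, 25.4 and 43.6 CPM in CAC, and 48.9 and 46.9 CPM in organoids, and it was called higher in RNF138-/- CAC (21.5 to 27.6 against 39.7 to 45.8 CPM). The genotypes are therefore used here as labelled, and every direction below rests on those labels. Among the organoids, Xist was at 391 to 464 CPM in the RNF138fl/fl libraries and at most 0.159 CPM in the RNF138-/- libraries, while 4 Y-linked genes were at 0 in the former and present in the latter, so that genotype and sex cannot be told apart there. In all 12 tissue libraries Xist was at most 0.585 CPM and 3 of the Y-linked genes (Ddx3y, Kdm5d and Uty) were at 12.4 CPM or more. The fourth, Eif2s3y, was at 4.47, 90.8 and 0.815 CPM in RNF138-/- CAC and at 23.7 CPM or more in the other 9 tissue libraries, so that none of them had the pattern of the RNF138fl/fl organoids. Cell type markers also moved with the groups. In CAC tissue, the summed smooth muscle markers (10 genes) ran from 2722 to 9112 CPM in RNF138fl/fl and from 146 to 282 CPM in RNF138-/- libraries, B and plasma cell markers (10) from 1537 to 2277 and from 126 to 217 CPM, intestinal epithelial markers (12) from 13289 to 35738 and from 6695 to 7452 CPM, and myeloid markers (12) from 346 to 746 and from 745 to 1183 CPM. In the organoids, all 10 fibroblast markers were detected, with a sum of 9386 to 23883 CPM in RNF138fl/fl and 41253 to 50813 CPM in RNF138-/- libraries, against 964 to 1797 CPM in the tissues. Their intestinal epithelial markers summed to 8141 to 9191 and 4791 to 6975 CPM. In bulk RNA, fewer cells of a type and less RNA per cell cannot be told apart, and the part of these markers and of sex in the results below was not tested.

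**Figure D1:**
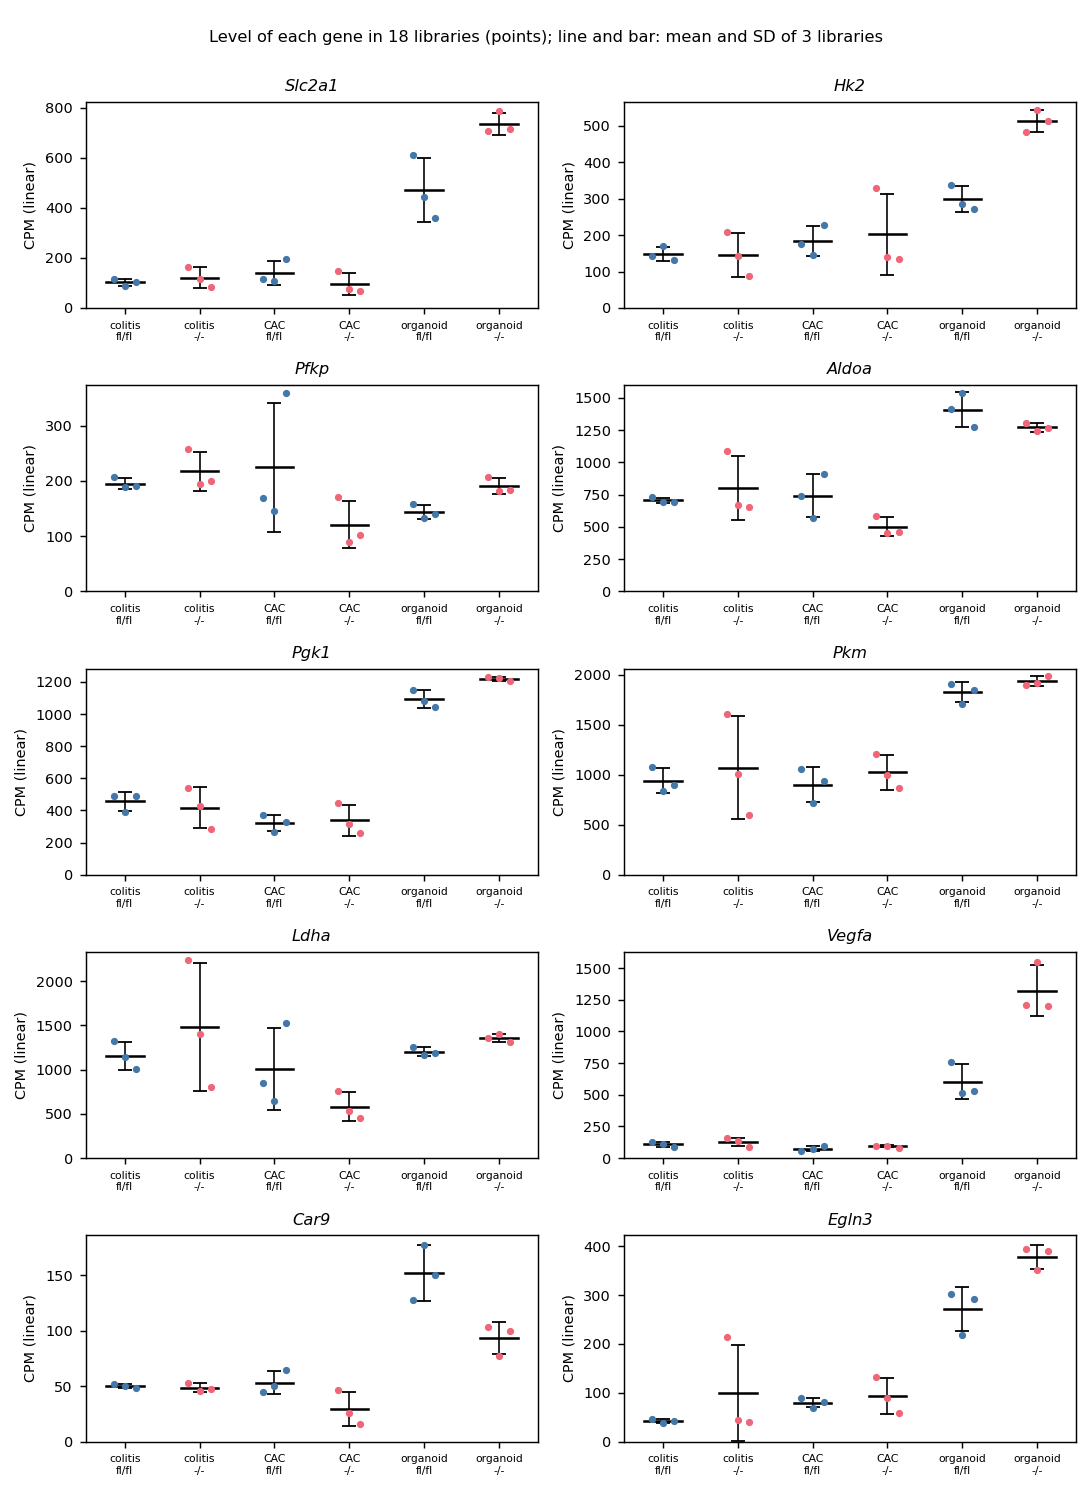
Level of each of the 10 genes (CPM, linear axis from 0) in the 18 libraries, by model and by labelled genotype (fl/fl and -/-); each point is a library and the line and bar are the mean and SD of 3 libraries. Slc2a1, Vegfa, Car9 and Egln3 are lowest in the tissues and highest in the organoids, and Vegfa reaches 1552 CPM in an RNF138-/- organoid library.

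Across all 18 libraries the outputs of the hypoxia response varied more than the enzymes. The highest library was above the lowest 28.2-fold for Vegfa, 11.6-fold for Slc2a1, 10.98-fold for Car9 and 10.3-fold for Egln3. For the 6 enzymes this ratio ran from 3.35-fold for Pkm to 6.22-fold for Hk2. Organoids of both genotypes were above all tissue libraries for Slc2a1, Aldoa, Pgk1, Pkm, Vegfa, Car9 and Egln3. For Hk2 the RNF138fl/fl organoids (272 to 338 CPM) overlapped with RNF138-/- CAC (135 to 329 CPM). Pfkp and Ldha did not follow this order, as their highest group means were those of RNF138fl/fl CAC (224 ± 117 CPM, mean ± SD, n = 3) and RNF138-/- colitis (1480.4 ± 718 CPM), and both of these groups overlapped with the next in order.

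On a scale that allows genes to be compared (CPM per kilobase of exon), Ldha was the most abundant of the 10 in RNF138fl/fl colitis, at 349.8 ± 47.5, followed by Aldoa at 242 ± 7.30, Pgk1 at 204 ± 26.4 and Pkm at 188 ± 25.1. The other 6 genes were below 30 on this scale. In the organoids Pgk1 and Aldoa came first, at 487 ± 24.43 and 483 ± 45.9 in RNF138fl/fl and at 544 ± 5.72 and 437 ± 11.8 in RNF138-/-, and the 2 genes overlapped in the former group. Pfkp was the last in each of the 6 groups, between 9.02 ± 3.23 and 16.7 ± 8.74, and its long annotated exon length of 13401 bases enters that value. Vegfa, ninth in RNF138fl/fl CAC at 17.2 ± 4.33, was the fifth in the organoids, at 141 ± 32.3 and 308 ± 46.7.

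The comparison of genotypes within the organoids asks what differs in cultures started from tumor cells, where the fibroblast markers summed to more than the epithelial ones in all 6 libraries. In the organoids labelled RNF138-/-, 5 of the 10 genes were higher and 1 was lower (edgeR quasi-likelihood test on 6 libraries, called at a Benjamini-Hochberg adjusted p under 0.05 over 15294 genes). Vegfa rose by the most, 2.14-fold, and the glucose transporter Slc2a1, the hexokinase Hk2, the phosphofructokinase Pfkp and the prolyl hydroxylase Egln3 rose between 1.30-fold and 1.67-fold. Car9 was lower, by 1.67-fold. The later enzymes Aldoa, Pgk1, Pkm and Ldha were not called. Over all genes tested, 17.9% were called higher and 17.7% lower, and the median log2 fold change was 0.26 over the 10 genes and -0.04 over all genes.

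Vegfa stood at 762, 517 and 527 CPM in the RNF138fl/fl organoid libraries and at 1209, 1552 and 1203 CPM in the RNF138-/- ones. Every RNF138-/- library lay above the highest RNF138fl/fl library, and the log2 fold change was 1.10 (SE 0.19, adjusted p = 0.00525 by edgeR). It was the only one of the 10 genes with a difference of at least 2-fold.

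Slc2a1, which carries glucose across the plasma membrane, was measured at 613, 443 and 358 CPM in RNF138fl/fl and at 708, 787 and 714 CPM in RNF138-/- organoids. The groups did not overlap, although the RNF138fl/fl libraries were spread more widely than the gap between the groups, and the log2 fold change was 0.61 (SE 0.19, adjusted p = 0.0411 by edgeR). Hk2, which traps glucose in the cell by phosphorylation, was at 338, 285 and 272 CPM and at 482, 543 and 512 CPM. All 3 RNF138-/- libraries were high, with a log2 fold change of 0.74 (SE 0.13, adjusted p = 0.00482 by edgeR). Pfkp, an isoform of the enzyme that commits glucose to glycolysis, was at 158, 132 and 140.4 CPM and at 208, 181 and 184 CPM. The groups were close but apart, and the log2 fold change was 0.37 (SE 0.11, adjusted p = 0.0334 by edgeR).

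Egln3 was at 302, 219 and 293 CPM in RNF138fl/fl and at 394, 350.4 and 389.9 CPM in RNF138-/- organoids, again without overlap, with a log2 fold change of 0.44 (SE 0.14, adjusted p = 0.0422 by edgeR). Car9 went the other way from Vegfa and Egln3. It was at 127, 177 and 150.2 CPM in RNF138fl/fl and at 103, 76.9 and 99.8 CPM in RNF138-/- organoids, every RNF138-/- library lying below the lowest RNF138fl/fl library (log2 fold change -0.74, SE 0.17, adjusted p = 0.0117 by edgeR). An exact permutation test of 3 libraries against 3 (two-sided) cannot go below p = 0.1, the value for groups that do not overlap.

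The 4 enzymes of the lower part of the pathway were abundant in both organoid groups. Aldoa had means of 1407 and 1272 CPM in RNF138fl/fl and RNF138-/-, Pgk1 of 1093 and 1221 CPM, Pkm of 1825 and 1936 CPM and Ldha of 1203 and 1357 CPM. Their log2 fold changes were -0.18, 0.12, 0.05 and 0.14, with SEs between 0.12 and 0.14 and adjusted p-values from 0.324 to 0.806 by edgeR. For Pgk1 and Ldha every RNF138-/- library also lay above the highest RNF138fl/fl library, so that lack of overlap was not particular to the called genes. The share of all genes without overlap is not given here. With scaling to library size alone, which moves the median of all genes by -0.20, those of Pgk1, Pkm and Ldha were -0.08, -0.16 and -0.07, and that of Aldoa was called lower.

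Of the 6 calls, that of Vegfa held in each of 12 alternative fits, that of Hk2 in 11 and that of Car9 in 10. Those of Slc2a1, Pfkp and Egln3 held in 4 of 12 each: the 3 were lost among others with scaling to library size alone, in a single fit of all 18 libraries (which left only Vegfa), and without any single library other than RNF138fl/fl replicate 1. Without RNF138-/- replicate 2, the calls were those of Hk2 and Vegfa only.

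**Figure D2:**
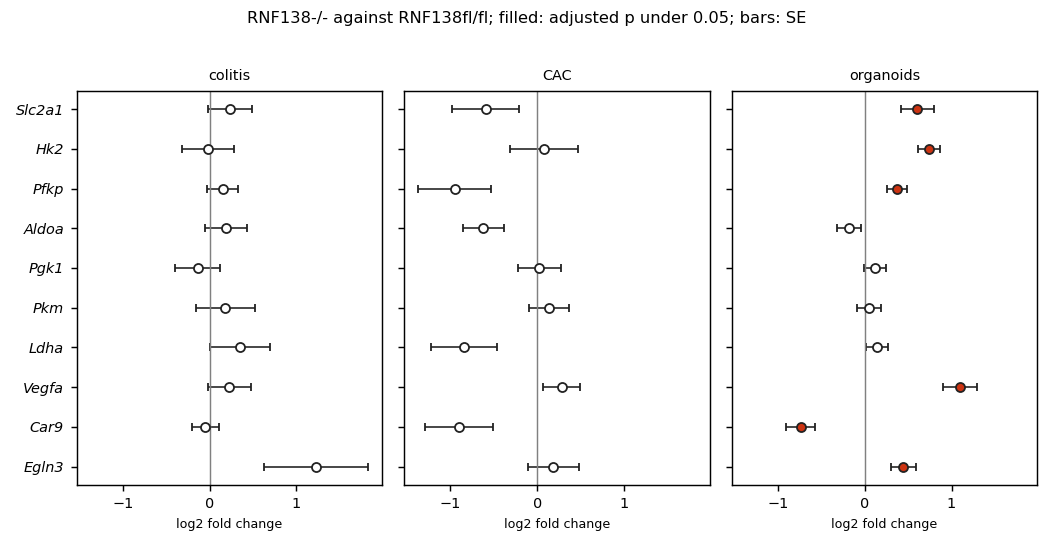
Log2 fold change of RNF138-/- against RNF138fl/fl libraries in colitis, CAC and organoids (points, with SE bars; filled where the edgeR adjusted p is under 0.05). In organoids 5 genes are filled to the right of 0 and Car9 to the left, no gene is filled in the tissues, and the points of Pgk1, Pkm and Ldha in organoids cross 0 with scaling to library size alone.

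Other genes of the pathways were taken from lists of 120 genes in all, which include the 10. In organoids, 107 of them were tested, and 37 were higher and 8 lower in the RNF138-/- libraries, with a median log2 fold change of 0.22. Of all genes tested 17.9% were called higher and 17.7% lower, with a median of -0.04. These shares are to be set beside each list in this comparison. Among 12 genes of HIF signalling tested, 5 were higher and 2 lower. Hif1a, which encodes HIF-1α, rose by 0.44 (SE 0.12, adjusted p = 0.0222 by edgeR) and Epas1, which encodes HIF-2α, by 0.94 (SE 0.28, adjusted p = 0.0324 by edgeR) on the log2 scale, while the hydroxylase gene Egln2 fell by 0.29 (SE 0.09, adjusted p = 0.0431 by edgeR). Egln1, the main oxygen sensor of the family, was at 131 and 149 CPM and was not called.

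Of 10 genes of VEGF ligands and receptors tested, 6 were higher and none lower, with a median log2 fold change of 0.95. Flt1, a VEGF receptor, was at 11.2, 5.51 and 4.79 CPM in RNF138fl/fl and at 24.9, 46.0 and 56.0 CPM in RNF138-/- organoids, a log2 fold change of 2.51 (SE 0.39, adjusted p = 0.00351 by edgeR). The co-receptor gene Nrp2 was at 98.2 to 119 and 277 to 339.7 CPM, a log2 fold change of 1.51 (SE 0.13, adjusted p = 0.000678 by edgeR). Endothelial markers, 10 in all, summed to 21.5 to 31.6 CPM in RNF138fl/fl and to 9.90 to 12.7 CPM in RNF138-/- organoids, with Emcn at most 3 counts in the former and Tie1 and Robo4 in the latter.

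Of 14 transporter genes tested, 6 were higher and 1 was lower. Slc2a3, the high-affinity glucose transporter GLUT3, was at 60.6, 25.9 and 38.1 CPM in RNF138fl/fl and at 159, 226 and 156 CPM in RNF138-/- organoids. Its log2 fold change was 2.08 (SE 0.29, adjusted p = 0.00257 by edgeR), against 0.61 for Slc2a1. Slc16a1, a monocarboxylate transporter, rose by 0.76 (SE 0.17, adjusted p = 0.0117 by edgeR). Bsg, the chaperone of the lactate transporters, was lower, at 3436 and 1849 CPM (log2 fold change -0.93, SE 0.18, adjusted p = 0.00701 by edgeR), and the lactate exporter gene Slc16a3 was at 254 and 306 CPM and was not called.

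Of 22 genes of glycolytic enzymes tested, 6 were higher and 1 was lower. Besides Hk2 and Pfkp, the isoforms Hk1 (0.61), Pfkm (0.90), Pfkl (0.35, at an adjusted p just under the threshold) and the neuronal enolase Eno2 (1.53, from 12.2 to 36.2 CPM) were called higher on the log2 scale by edgeR, and the brain-type aldolase Aldoc was lower (-0.58). Gapdh, with means of 2474 and 2742 CPM, was not called. Among 12 regulators of glycolytic flux, 2 were higher and 3 lower, beside 17.9% and 17.7% of all genes. By these counts this list did not stand apart. Pdk4, a mitochondrial kinase that inhibits pyruvate dehydrogenase, was at 54.3 and 16.8 CPM (log2 fold change -1.73), and Pdp1, a phosphatase that opposes such kinases, at 153 and 69.7 CPM (-1.17). Of 33 other hypoxia response genes, a list that holds Vegfa, Car9 and Egln3, 13 were higher and 1, Car9, was lower. Those that rose included P4ha1 (0.81), P4ha2 (1.10), Plod1 (0.96), Plod2 (1.47) and Lox (1.21), on the log2 scale, which encode enzymes that modify or cross-link collagen. All 10 fibroblast markers had positive log2 fold changes in this comparison (median 1.41), and 7 of them were called higher. Of 6 genes of gluconeogenesis 1, Pck2, was higher (1.14).

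In CAC tissue, the comparison of genotypes addresses tumor-bearing colon. None of the 10 genes was called (edgeR, 17752 genes tested, of which 1.05% were called higher and 5.33% lower). An unadjusted p under 0.05 was found for 1 of the 10 (Aldoa) and for 6001 of all genes, and DESeq2 called none of the 10. The medians of the log2 fold changes were -0.29 over the 10 genes and 0.01 over all genes, and the lowest adjusted p was 0.122.

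The libraries of CAC were spread widely. Ldha was at 847, 642 and 1523 CPM in RNF138fl/fl and at 762, 532 and 449 CPM in RNF138-/- libraries. The groups overlapped, and the log2 fold change was -0.85 (SE 0.38, adjusted p = 0.171 by edgeR). Pfkp was at 169, 145 and 359 CPM and at 170.3, 89.7 and 103 CPM, where the third RNF138fl/fl library alone was high (-0.95, SE 0.42, adjusted p = 0.165 by edgeR). Car9 was at 44.5, 49.8 and 64.8 CPM and at 46.6, 25.4 and 16.2 CPM, where the first RNF138-/- library lay within the RNF138fl/fl range (-0.91, SE 0.39, adjusted p = 0.156 by edgeR). Fitted with all 18 libraries together, Pfkp and Car9 were called lower.

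For Aldoa the means were 740.0 ± 168 and 499 ± 73.2 CPM (-0.62, SE 0.23, adjusted p = 0.122 by edgeR) and for Slc2a1 141 ± 49.0 and 96.6 ± 44.5 CPM (-0.60, SE 0.38). Vegfa was at 55.1, 73.5 and 92.2 CPM and at 98.8, 96.2 and 83.9 CPM, and its groups overlapped (0.28, SE 0.21, adjusted p = 0.374 by edgeR). Hk2, Pgk1, Pkm and Egln3 had log2 fold changes from 0.02 to 0.18.

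Of the 120 listed genes 112 were tested in CAC, and 1 was higher and 8 were lower in the RNF138-/- libraries, beside 1.05% and 5.33% of all genes, so that the lists did not stand apart by these counts. Arnt2, a partner of the HIF proteins, was higher, at 38.9 against 13.2 CPM (log2 fold change 1.501, SE 0.32, adjusted p = 0.0481 by edgeR). Among those that fell, Slc16a1, which also carries the short-chain fatty acid butyrate into colonocytes, was at 227 and 56.2 CPM (-2.07, SE 0.38, adjusted p = 0.0378 by edgeR) and Epas1 at 116 and 62.3 CPM (-0.95, SE 0.15, adjusted p = 0.0310 by edgeR). Selenbp1, the selenium-binding protein gene of colonocytes, was at 496 and 25.3 CPM (-4.36), the insulin-regulated glucose transporter gene Slc2a4 at 19.8 and 3.94 CPM (-2.38) and Pcx, which encodes pyruvate carboxylase, at 75.4 and 30.1 CPM (-1.37). Of the same 12 epithelial markers whose sums are given above, 3 were called lower in this comparison and 9 of the 10 smooth muscle markers were.

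In colitis tissue, none of the 10 genes was called and none had an unadjusted p under 0.05 (edgeR, 16623 genes tested, of which 0.018% were called higher and 0.0722% lower, while 1731 had an unadjusted p under 0.05). DESeq2 also called none of the 10. The libraries labelled RNF138fl/fl lay close together, and the RNF138-/- libraries were spread widely. Ldha was at 1322, 1143 and 1009 CPM in RNF138fl/fl and at 2237, 1397 and 808 CPM in RNF138-/- colitis, which enclosed the former. Egln3 was at 45.3, 38.3 and 42.5 CPM and at 214, 45.1 and 39.1 CPM, so that its log2 fold change of 1.23 (SE 0.60, adjusted p = 0.538 by edgeR) came from the first RNF138-/- library. The other log2 fold changes ran from -0.14 (Pgk1) to 0.35 (Ldha). Without RNF138-/- replicate 1, those of Slc2a1, Aldoa, Pkm and Ldha turned below 0, at -0.05, -0.09, -0.23 and -0.07. Of 113 listed genes tested, none was called by edgeR, 22 had an unadjusted p under 0.05, and DESeq2 called 7. The share of all genes called by DESeq2 is not given here, so that these 7 do not set the lists apart.

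**Figure D3:**
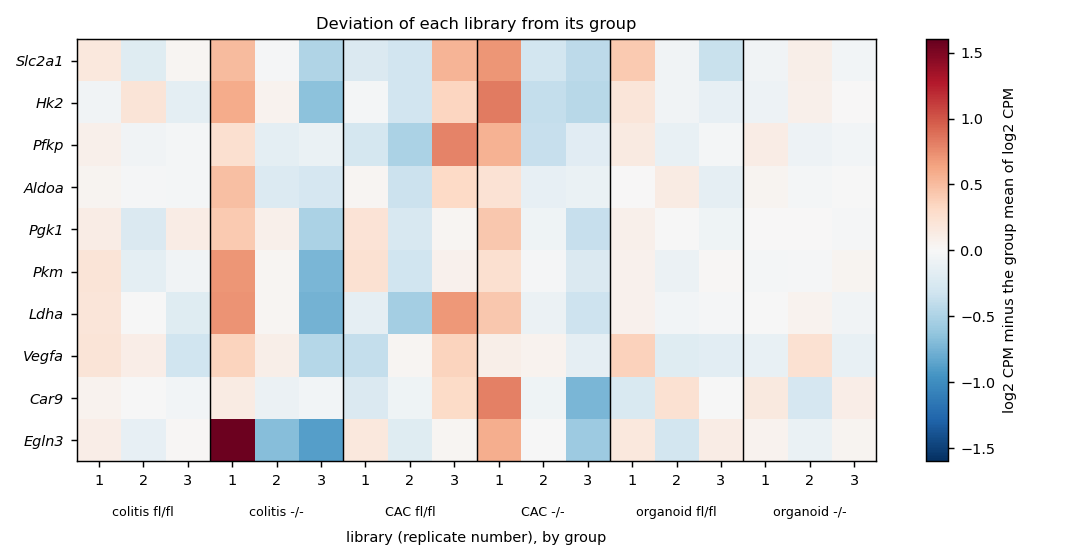
Deviation of each library from the mean of its group (log2 CPM, colour scale) for the 10 genes (rows) and 18 libraries (columns, by group and replicate number). All 10 genes lie above the group mean in RNF138-/- colitis replicate 1, RNF138fl/fl CAC replicate 3 and RNF138-/- CAC replicate 1, and all 10 below it in RNF138-/- colitis replicate 3 and RNF138-/- CAC replicate 3.

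In 5 of the tissue libraries all 10 genes lay on the same side of their group mean. In RNF138-/- colitis replicate 1 all 10 lay above their group mean, with a median deviation of 0.49 and a highest one of 1.57 (Egln3) on the log2 scale, and in replicate 3 of that group all 10 lay below it, with a median of -0.49. In CAC, all 10 were above the group mean in RNF138fl/fl replicate 3 (median 0.33) and RNF138-/- replicate 1 (0.49) and all 10 were below it in RNF138-/- replicate 3 (-0.35). In the RNF138-/- organoids the 10 genes were split, with 5, 5 and 4 above the group mean, and in replicate 2 Vegfa deviated by 0.24 and Car9 by -0.27. These libraries also differed in their cell markers. RNF138fl/fl CAC replicate 3 had 35738 CPM of intestinal epithelial and 346 CPM of myeloid markers, against 13289 to 13429 and 699 to 746 CPM in the other 2 libraries, and smooth muscle markers were at 15839 CPM in RNF138-/- colitis replicate 1 and 5488 CPM in replicate 3. Their part in the shared deviation was not tested.

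As a description over the 18 libraries, which share these library differences, the pairwise Pearson correlations of the group-centred log2 CPM ran from 0.168 (Car9 and Vegfa) to 0.910 (Pgk1 and Pkm). Ldha with Aldoa (0.873), Slc2a1 with Hk2 (0.881) and Pkm with Egln3 (0.864) were among the highest. Outside the 10, the genes most like their mean by this measure were P4ha1 (r = 0.927), which encodes a subunit of collagen prolyl 4-hydroxylase, Ppm1j (0.922), Rhoc (0.911), 9130008F23Rik (0.905) and the liver-type phosphofructokinase gene Pfkl (0.899), in 18 libraries.

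The comparison of CAC with colitis at a fixed genotype sets tumor-bearing colon after the carcinogen beside colon after DSS alone. Model and handling cannot be told apart in it. The study also reported precancerous lesions, and in some mice tumors, in RNF138-/- colitis. Whether the libraries used here came from such mice is not given. In RNF138fl/fl tissue none of the 10 genes was called (edgeR, one fit of 18 libraries, 19390 genes tested, of which 12.3% were called higher and 7.55% lower). An unadjusted p under 0.05 was found for 2 of the 10 and for 6557 of all genes, and DESeq2 called none of the 10. Pgk1 was at 372, 268 and 327 CPM in CAC against 491, 389 and 491 CPM in colitis, without overlap (log2 fold change -0.50, SE 0.23, adjusted p = 0.134 by edgeR), and Vegfa at 73.6 against 108 CPM on average (-0.56, SE 0.24, adjusted p = 0.113 by edgeR). Egln3 was at 88.6, 69.4 and 80.7 CPM against 45.3, 38.3 and 42.5 CPM, also without overlap (0.92, SE 0.47, adjusted p = 0.177 by edgeR), and it was called higher when RNF138-/- colitis replicate 1 was left out of the fit. Without RNF138fl/fl CAC replicate 3, Vegfa was called lower.

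In RNF138-/- tissue, 4 of the 10 genes were lower in CAC than in colitis and none was higher, where 27.9% of all genes were called higher and 26.7% lower. Between these groups summed cell markers also differed. In colitis, smooth muscle markers were at 5488 to 15839 CPM, B and plasma cell markers at 1544 to 2708 CPM, intestinal epithelial markers at 16242 to 25128 CPM and myeloid markers at 388 to 519 CPM. The first 3 sums were lower and the last was higher in CAC, where their ranges are given above, and their part in the changes was not tested. Ldha fell the most, from 2237, 1397 and 808 CPM in colitis to 762, 532 and 449 CPM in CAC. The lowest colitis library was above the highest CAC library, and the log2 fold change was -1.35 (SE 0.34, adjusted p = 0.00313 by edgeR). Pfkp fell by 0.84 (SE 0.29, adjusted p = 0.0201 by edgeR) and Aldoa by 0.69 (SE 0.21, adjusted p = 0.0116 by edgeR), both without overlap.

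Car9 was lower by 0.73 on the log2 scale (SE 0.27, adjusted p = 0.0332 by edgeR), although its first CAC library, at 46.6 CPM, lay among the colitis libraries of 45.5 to 53.1 CPM. The median log2 fold change of the 10 was -0.39 against 0.04 over all genes. With scaling to library size alone, which moved the median of all genes by 0.31, Ldha stayed lower, the calls of Pfkp, Aldoa and Car9 were lost and Hk2 was called higher. Ldha was called in all 18 fits that left out 1 library. Without RNF138-/- colitis replicate 1 the 2 calls were Ldha and, higher, Egln3. Without RNF138-/- CAC replicate 2 or replicate 3, 2 calls were left each time.

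In these tissues 18 of 114 listed genes were higher and 49 lower in RNF138-/- CAC than in RNF138-/- colitis, beside 27.9% and 26.7% of all genes, with a median log2 fold change of -0.53. In RNF138fl/fl 9 were higher and 9 lower, beside 12.3% and 7.55% of all genes. Of the genes of glycolytic enzymes, 2 were higher and 13 lower in RNF138-/-, among them Pfkm (-1.33), Ldhb (-0.82) and the hexokinase-domain gene Hkdc1 (-5.93), which was at 9.16, 75.8 and 82.0 CPM in RNF138-/- colitis and at most 1.06 CPM in RNF138-/- CAC. Hif1a was higher in RNF138-/- CAC, at 179.6 against 43.1 CPM (2.06, SE 0.37, adjusted p = 0.000274 by edgeR), as was the stress-induced heme oxygenase gene Hmox1 (31.9 against 6.51 CPM, 2.29). Arnt2 was higher in CAC under both genotypes (log2 fold changes 2.79 in RNF138fl/fl and 3.502 in RNF138-/-), from 1.91 to 13.2 CPM in RNF138fl/fl and from 3.42 to 38.9 CPM in RNF138-/-. In RNF138fl/fl CAC, Pdk4 was higher (26.2 against 6.45 CPM, 2.02), and Nrp2 (-1.37) and the monocarboxylate transporter gene Slc16a7 (-1.36) were lower.

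**Figure D4:**
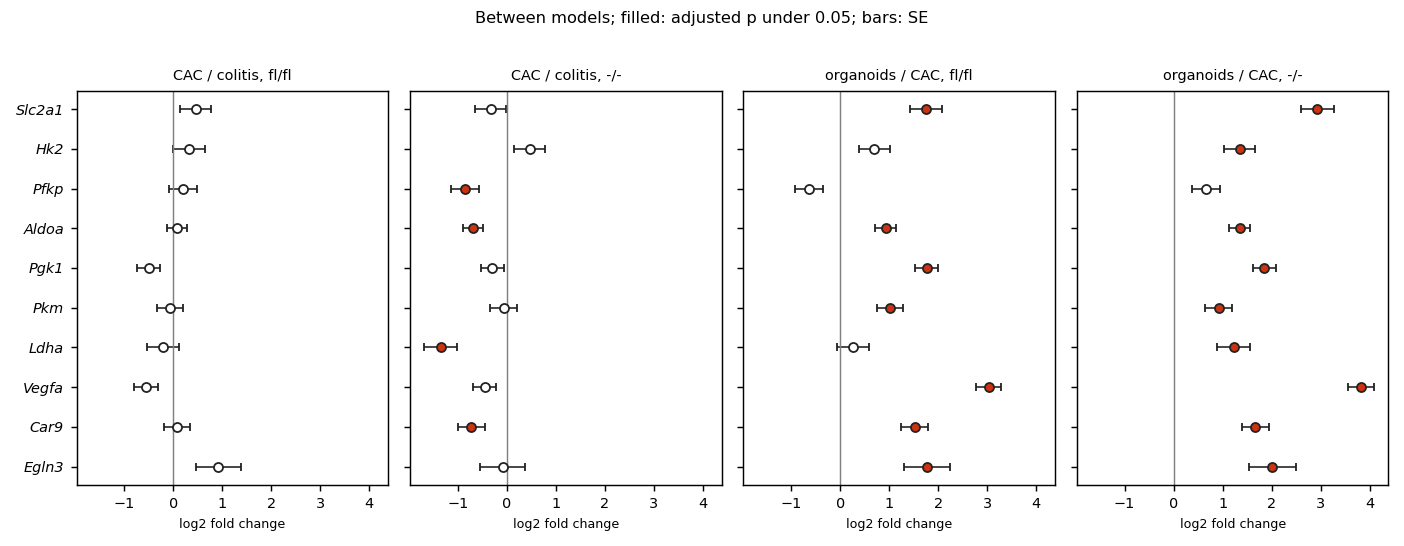
Log2 fold change between models at a fixed labelled genotype, CAC against colitis and organoids against CAC (points, with SE bars; filled where the edgeR adjusted p is under 0.05). All filled points of organoids against CAC lie to the right of 0, 7 in RNF138fl/fl and 9 in RNF138-/-, and the unfilled points of Pgk1, Pkm and Egln3 for CAC against colitis in RNF138-/- cross 0 with scaling to library size alone.

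Organoids differed from the tumor-bearing tissue in culture, cell make-up and medium at once, and in RNF138fl/fl also in sex by the values of Xist and the Y-linked genes above, and these cannot be told apart. In RNF138fl/fl, 7 of the 10 genes were higher in organoids than in CAC and none was lower, where 27% of all genes were called higher and 33.7% lower. Vegfa was 8.18-fold higher (log2 fold change 3.03, SE 0.26, adjusted p = 2.02e-07 by edgeR). Egln3, Pgk1 and Slc2a1 were 3.41-fold, 3.39-fold and 3.36-fold higher, Car9 2.86-fold, Pkm 2.03-fold and Aldoa 1.90-fold. All 7 were without overlap, and the same held for Hk2. Hk2 (0.70, edgeR adjusted p = 0.0712), Ldha (0.26) and Pfkp (-0.64, edgeR adjusted p = 0.0611) were not called.

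In RNF138-/-, 9 of the 10 genes were higher in organoids and none was lower, where 25.7% of all genes were called higher and 34.2% lower. Vegfa was 14.2-fold higher (3.83, SE 0.27, adjusted p = 2.35e-08 by edgeR) and Slc2a1 7.63-fold (2.93, SE 0.34, adjusted p = 2.79e-06 by edgeR). The others ran from 1.89-fold for Pkm to 4.04-fold for Egln3. Pfkp alone was not called (0.66, SE 0.29, adjusted p = 0.0565 by edgeR), although its RNF138-/- organoid libraries lay above the CAC ones. The median log2 fold change of the 10 was 1.27 in RNF138fl/fl and 1.51 in RNF138-/-, against -0.14 and -0.22 over all genes, and scaling to library size alone moved the latter medians by -0.17 and -0.62. With that scaling, Pkm (0.30) and Ldha (0.61) were no longer called in RNF138-/-, and Pfkp (-0.75) was called lower in RNF138fl/fl.

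Among the listed genes, 54 of 114 were higher and 30 lower in RNF138fl/fl organoids than in CAC, beside 27% and 33.7% of all genes. In RNF138-/-, 66 were higher and 21 lower, beside 25.7% and 34.2% of all genes. Of 33 other hypoxia response genes, 21 were higher and 3 lower in RNF138fl/fl and 25 were higher and 1 lower in RNF138-/-. The collagen cross-linking enzyme gene Lox rose by 6.53 under both genotypes (log2 scale), and it is also expressed by fibroblasts, whose markers are given above. Slc2a3 (2.89 and 4.99), the lactate exporter gene Slc16a3 (3.06 and 1.72) and Egln1 (1.05 and 1.37) were called higher under both genotypes. Epas1 was lower under both (-2.57 and -0.69), as was the liver-type pyruvate kinase gene Pklr (-0.86 and -0.80). The endothelial VEGF receptor gene Kdr was lower under both (-4.83 and -4.11). Pck1, of gluconeogenesis, was called lower under both and Hkdc1 in RNF138fl/fl, and both were near the limit of detection in organoids, at most 0.404 and 0.405 CPM, so that their folds are not given.

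Whether the genotype difference itself differed between models was tested as an interaction in the fit of all 18 libraries. Between organoids and CAC, Pfkp was the only one of the 10 that was called, with a difference of 1.30 on the log2 scale (SE 0.40, adjusted p = 0.0291 by edgeR), where 13.1% of all genes were called higher and 10.2% lower. Its genotype difference was 0.37 in organoids and -0.95 in CAC, and the call was lost with scaling to library size alone, which moved the median of all genes by -0.46. Slc2a1 (1.18, SE 0.45, adjusted p = 0.0664 by edgeR) and Vegfa (0.80, SE 0.34, adjusted p = 0.0982 by edgeR) were not called, and Slc2a1 joined Pfkp with DESeq2 and without a filter on low counts. The call of Pfkp held in 12 of 18 fits that left out 1 library. None of the 10 was called without RNF138fl/fl CAC replicate 3, RNF138-/- CAC replicate 2 or 3, RNF138fl/fl organoid replicate 2 or 3, or RNF138-/- organoid replicate 1, where the difference of Pfkp ran from 0.80 to 1.31. Without RNF138-/- CAC replicate 1 or RNF138fl/fl organoid replicate 1, 3 were called.

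Between CAC and colitis none of the 10 was called, where 4.21% of all genes were called higher and 9.88% lower. Unadjusted, 3 of the 10 (Pfkp at -1.05, Aldoa at -0.76 and Ldha at -1.14) and 5843 of all genes had a p under 0.05, DESeq2 called Aldoa, and up to 3 were called when a library was left out. Between organoids and colitis none was called by edgeR or DESeq2, where 4.52% of all genes were called higher and 2.58% lower. Vegfa, at 0.90 (SE 0.34, adjusted p = 0.112 by edgeR), was the 1 gene of the 10 with an unadjusted p under 0.05, and 4824 of all genes had one. Of the 6 genes called between genotypes in organoids, Pfkp alone was shown by these tests to differ from its value in a tissue, and that in CAC.

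Hk2, Pfkp, Ldha and Pkm have sister isozymes, and the share of each in its family within a library (in CPM per kilobase) does not depend on the scaling between libraries. The share of Hk2 among Hk1, Hk2 and Hk3 was 48.0% ± 4.70 in RNF138fl/fl colitis (mean ± SD, n = 3), 57.7% ± 3.31 in RNF138fl/fl CAC and 77.0% ± 1.76 in RNF138fl/fl organoids. In CAC it was 61.0%, 54.4% and 57.6% in the RNF138fl/fl libraries and 78.8%, 68.5% and 69.7% in the RNF138-/- libraries. The groups did not overlap, with a difference of 14.6 percentage points (exact permutation test over 20 splits, two-sided, p = 0.1, the smallest possible). Hk2 itself was at 184 and 202 CPM there, while Hk1 was at 185 and 90.0 CPM. In organoids the share of Hk2 was 78.4% ± 1.72 in RNF138-/-, within the spread of RNF138fl/fl.

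Ldha was the main lactate dehydrogenase in every group, and its share was lower in RNF138-/- than in RNF138fl/fl tissue, at 93.9% ± 1.52 against 96.5% ± 0.215 in colitis (-2.58 points, exact permutation p = 0.1) and 91.7% ± 2.42 against 95.99% ± 0.509 in CAC (-4.31 points, exact permutation p = 0.1), without overlap. In colitis, Ldha itself was at 1158 CPM in RNF138fl/fl and 1480 CPM in RNF138-/-, and its sister gene Ldhb at 19.9 and 41.9 CPM. In CAC, Ldha was at 1004 and 581 CPM and Ldhb at 19.3 and 23.7 CPM. In organoids the shares of Ldha overlapped, at 95.8% ± 1.03 and 95.2% ± 0.304.

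Pfkp was second to Pfkl and above Pfkm by group mean among the phosphofructokinases in each of the 6 groups, with 27.4% ± 4.14 in RNF138fl/fl colitis, 33.7% ± 6.34 in RNF138fl/fl CAC and 16.9% ± 0.224 in RNF138fl/fl organoids, where Pfkl held 71.8% ± 0.134. Genotypes overlapped in each model. Pkm held between 90.9% and 97.7% of the pyruvate kinases on average, the higher values in organoids, and genotypes also overlapped.

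**Figure D5:**
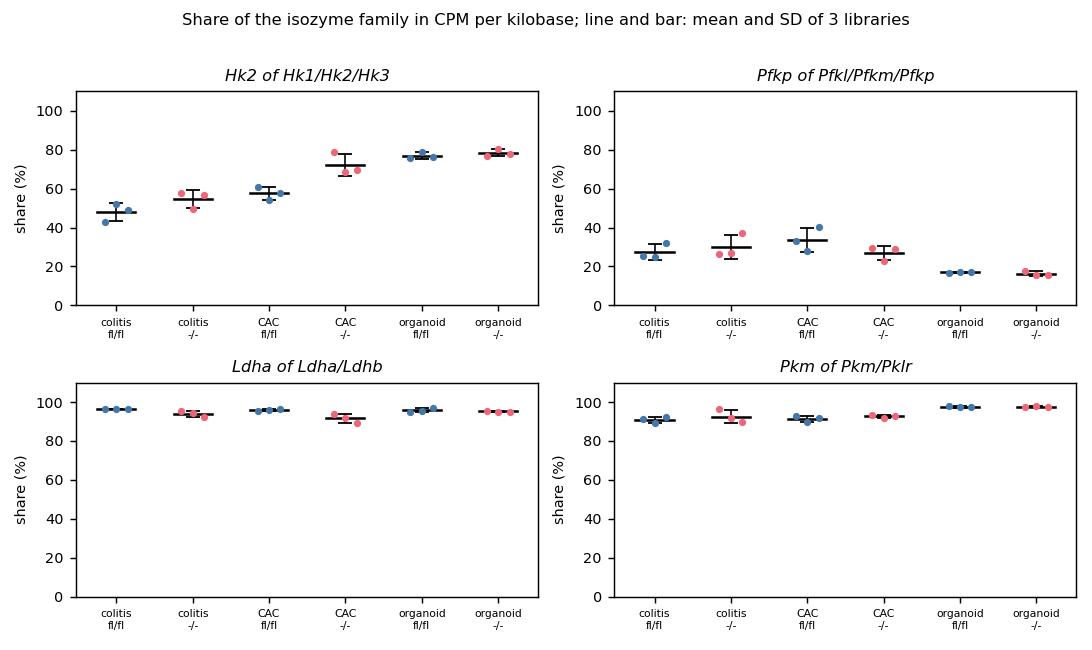
Share of Hk2, Pfkp, Ldha and Pkm in their isozyme families (percent of CPM per kilobase, axis from 0) in the 18 libraries; points are libraries and the line and bar are the mean and SD of 3. The share of Hk2 goes from 48.0% in RNF138fl/fl colitis to 77.0% in RNF138fl/fl organoids, and the RNF138-/- CAC libraries lie above the RNF138fl/fl CAC ones.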

How the data were processed

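RNA of colorectal tissue or organoids was extracted with Trizol per the labels (Trizol or an RNeasy kit by the study's methods) and sequenced from TruSeq libraries. Per the labels, the authors' processing notes name STAR 2.6.1d, HTSeq 0.11.2 and DESeq2 with the build mm10, and the deposited values are raw read counts per gene, without normalization. The study's methods name another counting tool and an older annotation, and the strand setting is not given in the sources used here. A second deposited file holds log2 fold changes and p-values of the authors' own comparisons and was not used. Of the 36757 genes of the count table, 36700 matched the GENCODE M21 annotation by identifier, which gave exon lengths and coordinates. Total counts ran from 11514716 to 24390082 per library, and the precision of a gene's level was set by the spread between libraries.

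Genes were tested with edgeR 4.0.16 in R 4.3.3 (TMM scaling, filterByExpr, quasi-likelihood test, Benjamini-Hochberg adjustment over all genes tested, called under 0.05). Genotypes were compared within each model on 6 libraries, and models and interactions in 1 fit of all 18, where all groups share an estimate of the spread. In these the comparisons share libraries, so that each is given by its own values. CPM are TMM-scaled, and levels between genes are per kilobase of exon. Alternatives were RLE size factors, library size alone, no filter, DESeq2 1.42.0, the replicate number as a block, a fit of all libraries, a covariate of 4 Y-linked genes in the tissues, and leaving out each library. Figures were drawn with matplotlib 3.10.9.

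The 10 genes, the lists and the tests were chosen with earlier results of these data known. Besides the 10 and their partner genes, the text names in each comparison the listed genes with the largest called changes (3 in each direction between genotypes and 2 between models) whose groups did not overlap and whose higher mean was at least 5 CPM. Aldoc, Pck2, Kdr in RNF138fl/fl and the collagen-modifying genes fall outside this rule and were named after their values were seen. Some genes that the rule names, and the results that need them, are not reported here. Tested on simulated counts with 100 genes changed 2-fold and 100 changed 4-fold, the steps recovered 52 and 95 in organoids, 1 and 50 in CAC and 6 and 74 in colitis. In organoids and CAC far more genes were called in the data than were changed in the simulations. The adjustment is less strict there, so that these numbers do not give the power of those comparisons.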

Additional observations from a re-analysis of the deposited data

Results flagged for a closer look

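Of the 10 genes, 1, Pfkp, was called for a genotype difference that differed between models, beside 13.1% of all genes called higher. By this count the 10 genes did not stand apart. The difference was 1.30 on the log2 scale between organoids and CAC (edgeR adjusted p = 0.0291 for the interaction). The call held in 12 of 18 fits that left out 1 library, and was lost with scaling to library size alone. Slc2a1 was called as well with DESeq2, without a filter on low counts and with the replicate number as a block. The edgeR test of this interaction called 29 of 114 listed genes higher and 6 lower, against 13.1% and 10.2% of all genes. Among the partner genes, a fixed choice of isozymes, transporters and HIF pathway genes, the same test between organoids and CAC singled out Hk1 (1.68), Pfkm (1.58), the glucose transporter gene Slc2a3 (2.10), the monocarboxylate transporter gene Slc16a1 (2.81) and Epas1 (1.88), each with an edgeR adjusted p under the threshold. Slc16a1 and Epas1 were called in opposite directions within the models, higher in RNF138-/- organoids and lower in RNF138-/- CAC. Other listed genes differed by more, such as Selenbp1 (4.24), which was named here after its values were seen.

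Between CAC and colitis 3 of the 114 listed genes were called higher and 16 lower, against 4.21% and 9.88% of all genes. The genotype difference of Slc16a1 differed by -1.51 and that of Hif1a by 1.57. Between organoids and colitis 8 were called higher and 4 lower, against 4.52% and 2.58% of all genes, and among the partner genes the difference was called for Slc2a3, by 1.70, where the tissue libraries were all between 3.76 and 8.46 CPM. Outside them it was called, among others, for Hif3a (2.46), Arnt (1.04), Arnt2 (-1.43) and Bsg (-1.002), named after their values were seen. The CAC groups differ in the marker sums of several cell types and the organoid groups in fibroblast markers and in sex, and the part of these in the values was not tested. Groups of 3 libraries are too small for a test of single outlying libraries.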

How the results depend on the processing

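Counting error was small for these genes, and the limits come from 3 libraries a group, from single libraries in the tissues, and from labels that Rnf138 does not bear out. Of 27 calls on the 10 genes, 27 held with RLE size factors, without a filter and with DESeq2, and 18 held with library size alone, and none changed sign. In the fit of all 18 libraries, 1 of the 6 organoid calls held, and 2 were added in CAC (Pfkp and Car9, lower). For values that changed sign, the cause was not tested, and none of them was called with all libraries included. Of the changed signs only Egln3 for CAC against colitis in RNF138-/- was called under the alternative, at 1.15 without RNF138-/- colitis replicate 1.

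The replicate numbers were not taken as pairs, since in no model did every pair of same-numbered libraries correlate above 0.1. The correlation of deviations between same-numbered libraries of both genotypes ran from 0.056 to 0.38 in colitis, from 0.032 to 0.18 in CAC and from -0.11 to 0.030 in organoids, and 3, 5 and 1 of the 6 libraries correlated best with their own number, a hint from the data and not from the design. With the number as a block, 24 of the 27 calls held, the calls between genotypes in organoids numbered 3 (Hk2, Vegfa and Car9), and those of the interaction of organoids and CAC numbered 2. The block turned the log2 fold changes of Hk2 and Pgk1 in CAC to -0.027 and -0.0026, and that of Egln3 between CAC and colitis in RNF138-/- to 0.092.

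With library size alone, the calls numbered 2 for CAC against colitis in RNF138-/- and 0 for the interaction of organoids and CAC. That interaction had 2 calls without a filter and 2 with DESeq2, and the interaction of CAC and colitis had 1 with DESeq2. Library size alone turned Pgk1, Pkm and Ldha between genotypes in organoids to -0.081, -0.16 and -0.067, Pgk1, Pkm and Egln3 between CAC and colitis in RNF138-/- to 0.029, 0.27 and 0.27, and Car9 and Egln3 in the interaction of organoids and CAC to -0.32 and -0.20. The covariate of Y-linked genes turned Pkm in colitis to -0.0032 and could not be fitted in organoids, where it is the same split as the genotype. Of the listed genes, 7 were called in colitis without a filter (6 higher) and 7 with DESeq2 (5 higher), against 0, and in CAC 5 were called with library size alone, 14 without a filter and 28 with DESeq2, against 9. The shares of all genes under these alternatives are not given here, so that these counts do not set the lists apart.

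Leaving out 1 library at a time, the calls on the 10 genes ran from 2 to 6 between genotypes in organoids, from 2 to 6 for CAC against colitis in RNF138-/- and from 0 to 1 in RNF138fl/fl, and from 0 to 3 in the interactions of CAC with colitis and of organoids with CAC. The log2 fold changes that changed sign in colitis were lowest without RNF138-/- replicate 1 and highest without RNF138-/- replicate 3, from -0.047 to 0.44 for Slc2a1, -0.35 to 0.24 for Hk2, -0.089 to 0.31 for Aldoa, -0.36 to 0.068 for Pgk1, -0.23 to 0.47 for Pkm and -0.069 to 0.64 for Ldha. The same 2 replicates of RNF138-/- CAC bounded those in CAC, from -0.47 to 0.32 for Hk2, -0.22 to 0.21 for Pgk1, -0.0060 to 0.26 for Pkm and -0.16 to 0.45 for Egln3. For CAC against colitis in RNF138fl/fl they ran from -0.31 to 0.41 for Pfkp, -0.10 to 0.20 for Aldoa, -0.22 to 0.051 for Pkm, -0.64 to 0.0058 for Ldha and -0.089 to 0.16 for Car9, and in RNF138-/- from -0.082 to 0.80 for Hk2, -0.42 to 0.35 for Pkm and -0.53 to 1.15 for Egln3. In the interactions, Car9 ran from -0.13 to 0.66 between organoids and CAC and Egln3 from -1.15 to 0.49 between organoids and colitis.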
